A study of Mus musculus with 24 samples.

Results

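The comparison described here was between the hippocampus of adult female mice (FA) and adult male mice (MA), both aged 12 months, and it was described through the autosomal genes, grouped by cell type and pathway. The members were the 4 FA and 4 MA arrays, 1 per mouse, which were 8 of the 24 arrays of the series. The other 16 arrays came from young mice of 3 months (FY and MY) and old mice of 24 months (FO and MO), with 4 arrays in each group. All mice were C57BL6 and received no genetic or drug intervention, and the dissected tissue held CA1, CA2, CA3 and the dentate gyrus. Per the study's methods, females were staged by daily vaginal lavage for weeks and killed in diestrus, whereas males were killed after a week of acclimation, so that sex cannot be told apart from handling in this comparison. The labels name the replicates by number only, and nothing ties an array to a cage or a day. The p-values and standard errors of the limma model below rest on the spread between mice within groups, pooled over all 6 groups. They do not measure the spread of the adult mice alone.

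The hippocampus is the brain structure that forms declarative and spatial memory, and its circuit runs from dentate granule cells through CA3 to CA1 pyramidal cells under the control of inhibitory interneurons. Its tissue also holds astrocytes, which clear glutamate and potassium, oligodendrocytes, which wrap axons in myelin, and microglia, the resident phagocytes that prune synapses and carry the complement and interferon machinery of the brain. Ovarian and testicular steroids reach receptors in these cells, and the sex chromosomes add a difference that every cell carries. The comparison asked which autosomal genes differed between the sexes in mid-life.

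Values were array intensities on a linear scale, with background subtracted and each array scaled to the same mean by the authors. Lower intensities were raised to a floor of 16 and log2 values computed, and a probe was tested if it exceeded 16 in all 4 arrays of FA or of MA. This held for 11523 of 25697 probes, of which 10507 were autosomal and stood for 7980 autosomal genes. Between 11812 and 12201 probes exceeded 16 in a single adult array, and arrays correlated, on log2 values by Pearson's r, at 0.979 to 0.992 within a group and 0.965 to 0.991 between FA and MA, across probes, which are not independent replicates. FA replicate 1 and MA replicate 3 stood apart, with a root mean square deviation from their group mean of 0.245 and 0.254 against 0.136 to 0.214 in the other 6 arrays, and they lay at opposite ends of the first principal component (36.4% of the variance). Values without 1 or both of them are given beside the lists and genes that moved most with them. The sex labels matched the arrays. Eif2s3y, a Y-linked translation factor gene, lay at 16 in all 4 FA arrays and between 252 and 394 in MA. Both probes of Xist, the RNA that coats the inactive X, lay at 16 in all 4 MA arrays and between 76.9 and 163 in FA. Markers of the dissected regions were present in all 8 arrays, with C1ql2, a dentate granule cell gene, at 1624 to 2727 and Slc17a7, the vesicular glutamate transporter of principal neurons, at 1835 to 2191.

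No autosomal probe differed between FA and MA after adjustment over all probes. The groups were compared by limma, whose model held all 6 groups, and calls were made at a Benjamini-Hochberg adjusted p below 0.05. Limma called 6 of 11523 probes (0.0521%), which were Eif2s3y, both Xist probes, the Y-linked demethylase gene Kdm5d, 1 probe of the X-linked demethylase gene Kdm6a, and 1 probe with no gene name. It called 0 of 10507 autosomal probes (0%), with a lowest autosomal adjusted p of 0.0816. At an unadjusted p under 0.05 it gave 279 autosomal probes with a higher mean in FA (2.66%) and 421 with a lower mean (4.01%), together 700 (6.66%), where 525.4 in all would be expected by chance. The study's methods used analysis of variance over age and sex, followed by Newman-Keuls comparisons of means and a minimum fold of 1.2, and run in that way on these values it called 24 autosomal probes higher (0.228%) and 36 lower (0.343%) in FA, together 60 (0.571%). That count took the Newman-Keuls comparison over all 6 group means, and it was 306 when only the 2 sexes within the age were compared, a choice that the methods do not settle. The 2 groups did not overlap for 204 autosomal probes that were higher (1.94%) and 333 that were lower (3.17%) in FA. The methods' test has no adjustment over probes, and its count rose to 123 without MA replicate 2 and to 93 without MA replicate 4. After Benjamini-Hochberg adjustment, the sex factor of that analysis of variance, over all ages, was called for 17 autosomal probes (0.162%). All differences below are log2 differences of FA minus MA with the standard error (SE) of the limma fit and n = 4 per group, and a p under 0.05 without the word adjusted is limma's unadjusted p. For the genes named below no adjusted p passed 0.05 unless that is stated.

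Cibar1, which encodes a membrane-bending protein of the base of the cilium, had the smallest autosomal p. Its intensity was 696, 721, 699 and 688 in FA and 879, 846, 923 and 810 in MA. The groups did not overlap, with FA 0.30 lower (-0.30, SE 0.06, limma adjusted p = 0.0816), and the difference ranged from -0.33 to -0.27 when any 1 array was left out. It passed the threshold under 3 other settings (limma adjusted p = 0.00909 with a floor of 32, 0.0183 without the filter on low probes and 0.0436 with array weights). A second probe of the gene had a lower mean in FA too (-0.15, SE 0.07). The same sex difference was 0.02 in young and -0.04 in old mice.

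Among the 12 autosomal genes with the smallest p and a lower mean in FA were Sumo2, Smim8, Rccd1 and Rab6a. Sumo2, a small protein that is attached to other proteins as a tag, was at 1826, 1829, 2012 and 1860 in FA and 2208, 2272, 2221 and 2269 in MA (-0.25, SE 0.06, limma adjusted p = 0.225). The MA arrays lay closely together and above every FA array. Smim8, a small membrane protein gene, was at 318, 282, 303 and 299 in FA and 392, 372, 390 and 400 in MA (-0.37, SE 0.09, adjusted p = 0.282), and both of its other probes were lower as well. Rccd1, a gene with an RCC1 domain, had a mean of 60.6 ± 7.32 (SD, n = 4) in FA and 83.6 ± 6.17 in MA. Rab6a, a GTPase of traffic at the Golgi apparatus, was at 1160 to 1323 in FA and 1360 to 1598 in MA (-0.28, SE 0.07), but its other probes stood at 0.11 and 0.07 with the opposite sign. Tmed2, a cargo receptor of vesicles between the endoplasmic reticulum and the Golgi, had the most negative difference of the 7980 genes (-0.92, SE 0.24), with 30.3, 17.9, 18.5 and 21 in FA and 40.1, 37.6, 53.8 and 33.3 in MA, near the floor of 16. Gabarapl2, an autophagy protein of the Atg8 family, was at 117 to 148 in FA and 173 to 254 in MA (-0.58, SE 0.16).

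On the side of higher values in FA stood Tnfrsf12a, Vcp, Ecd and Serinc2. Tnfrsf12a, the receptor of the cytokine TWEAK, was at 37.3, 37.1, 27.3 and 23.9 in FA and 16, 20.1, 16 and 16 in MA (0.87, SE 0.19, limma adjusted p = 0.225). Because 3 MA arrays lay at the floor, this difference depends on the floor. Vcp, an ATPase that pulls ubiquitin-tagged proteins out of complexes, was at 2430, 2258, 2492 and 2533 in FA and 2111, 2016, 2068 and 2044 in MA (0.24, SE 0.06, adjusted p = 0.48). The 2 groups of Vcp were separated by more than the range within MA. Ecd, a cell cycle regulator, was at 418 to 455 in FA and 321 to 367 in MA (0.33, SE 0.09), while its other probe stood at -0.02. Serinc2, a membrane protein of the serine incorporator family, was at 63.6, 32.1, 24.5 and 36.2 in FA and 20.4, 20.1, 16 and 16 in MA, so that FA replicate 1 was the highest and part of MA lay at the floor. Its difference was 1.03 (SE 0.29), and 0.76 without FA replicate 1.

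Each of these 24 genes was taken by its probe with the smallest p. Of the 24, 23 had groups that did not overlap (against 1.94% higher and 3.17% lower over all autosomal probes) and 21 were called by the methods' test, measures that follow from their small p. For 12 of them other probes of the gene were tested. In 7 of the 12 every other probe had the same sign, and in 2, Cibar1 and Smim8, another probe also had a p under 0.05. Of the 17 other probes, 10 had the same sign, and for Rab6a, Vps41 and Ecd the other probes had the opposite sign.

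**Figure D1:**
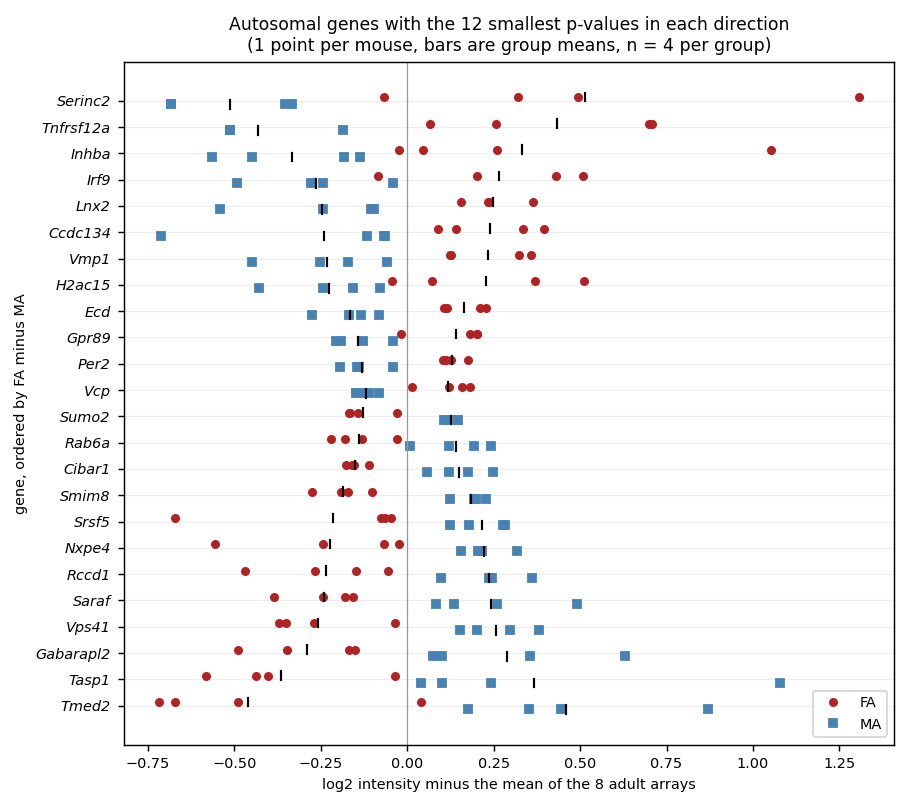
Values of the 24 autosomal genes with the 12 smallest p-values in each direction, as log2 intensity minus the mean of the 8 adult arrays (x axis), with 1 point per mouse and black bars for group means. FA (red) and MA (blue) do not overlap for 23 of the 24 genes, and the spread within a group is small for Sumo2, Vcp and Per2 and large for Serinc2 and Tmed2.

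Further genes that the methods' test called included regulators of the cytoskeleton, of RNA and of vesicles, all chosen by that test on these samples. Fcgr3, an immunoglobulin receptor of microglia, was at 77.3, 63.5, 69.6 and 91.8 in FA and 44.7, 64.2, 48.2 and 68.0 in MA (0.43, SE 0.15), and the groups overlapped. Rnpep, an aminopeptidase, was at 248 to 291 in FA and 195 to 238 in MA (0.33, SE 0.11). Ago3, a protein that binds small regulatory RNAs, was at 56.0 to 61.6 in FA and 45.3 to 49.1 in MA (0.30, SE 0.11). Dicer1, the enzyme that cuts microRNA precursors, stood the other way with 33.3 to 46.1 in FA and 44.7 to 63.9 in MA (-0.43, SE 0.14). Kif2a, a motor protein that takes microtubules apart, was at 209, 224, 141 and 207 in FA and 259, 226, 287 and 275 in MA (-0.44, SE 0.13). Dctn1, the large subunit of the dynactin complex, was at 95.6 to 114 in FA and 126 to 179 in MA (-0.39, SE 0.13). Sec23a, a coat protein of vesicles that leave the endoplasmic reticulum, was at 47.4 to 65.9 in FA and 74.8 to 86.7 in MA (-0.59, SE 0.18). Neither Kif2a, Dctn1 nor Sec23a overlapped between the groups.

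Immediate early genes, which neurons transcribe within minutes of firing and which serve as a record of recent activity, had higher means in FA for 22 of 26 measured genes. Over all 7980 autosomal genes, 52.1% had a higher and 47.9% a lower mean in FA. Their median was 0.28, against 0.01 over all autosomal genes, and 7 had a p under 0.05 with a higher mean (over all genes 2.86%) and 0 with a lower mean (3.45%). These shares over all genes are the background for the counts of every list below. Limma called 0 of them, and the methods' test called 1, Inhba (over all genes 0.251% higher). Inhba encodes a subunit of activin, a growth factor induced in active neurons, and was at 60.7, 57.8, 70.4 and 122 in FA and 53.5, 39.8, 43.1 and 51.8 in MA (0.67, SE 0.20, limma adjusted p = 0.739). Every FA array lay above every MA array, with FA replicate 4 far above the rest. Arc, a protein that removes glutamate receptors from synapses, was at 383, 593, 590 and 812 in FA and 461, 566, 184 and 241 in MA (0.81, SE 0.30). Fos, the classical activity marker, was at 168, 389, 302 and 398 in FA and 312, 439, 62.7 and 57.1 in MA (1.00, SE 0.54). For both genes MA replicates 3 and 4 were low while MA replicates 1 and 2 lay within the range of FA or, for Fos in MA replicate 2, just above it. Motifs were searched on both strands in the 250 bases before each gene start of the RefSeq promoter sequences. The cyclic AMP response element (TGACGTCA) stood in 1 of the 22 immediate early genes that had such a sequence, Dusp1, against 1.77% of all genes. The CArG box stood in 1 of 22, Egr2, against 1.62% of all genes. Only exact matches were counted, so variant sites and sites farther from the start were not seen.

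The same split of the MA arrays was seen for Egr1, Egr2 and Dusp1. Egr1, a zinc finger transcription factor, was at 2762, 3342, 3126 and 4065 in FA and 2912, 3038, 2089 and 1832 in MA (0.45, SE 0.17). Its relative Egr2 was at 43.2 to 103 in FA and at 53.9, 74.3, 16 and 16 in MA (1.2, SE 0.51), a difference that depends on the floor. Dusp1, a phosphatase that switches off MAP kinases, was at 504, 798, 729 and 953 in FA and 587, 763, 352 and 281 in MA (0.66, SE 0.31). Klf2, a transcription factor, stood at 0.66 (SE 0.25) and Dusp6, a phosphatase of ERK, at 0.34 (SE 0.13), with a second, dimmer probe of Dusp6 at 0.02. The mean level of the list, taken as the mean deviation of its genes from the 8 arrays, was -0.098, 0.144, 0.215 and 0.431 in FA and 0.073, 0.114, -0.434 and -0.445 in MA on the log2 scale. The 2 groups overlapped, and FA replicate 4 was highest. Leaving out single arrays kept at least 21 of 26 means higher in FA, with medians between 0.18 (without MA replicate 3) and 0.41 (without FA replicate 1, and without MA replicate 1), but the count with a p under 0.05 was 1 without FA replicate 4 and 2 without MA replicate 4. Homer1, a scaffold of glutamate receptors in the same list, stood at 0.03 (SE 0.11).

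Interferon response genes, the antiviral programme that type I interferons switch on through a complex that holds Irf9, had a higher mean in FA for all 14 measured genes. Over all autosomal genes 52.1% had a higher mean in FA. The list had a median of 0.32, 3 of its genes had a p under 0.05 with a higher mean (over all genes 2.86%), and limma called 0. With 1 array left out, the median was lowest at 0.17 without FA replicate 1 (2 at a p under 0.05) and highest at 0.52 without FA replicate 3 (8 at a p under 0.05). The promoters of 12 of the 14 were found among the RefSeq sequences of build GRCm38.p6, and the letters GAAANNGAAA, the core of the interferon-stimulated response element, were searched on both strands in the 250 bases before each start. They were found in 6 of the 12, against 936 of 27025 genes (3.46%) in windows of the same length. The windows of 60 bases around the match are shown because they hold the letters that the complex with Irf9 is known to bind, written 5′ to 3′ on the gene's strand, with the match in capitals (TTTCNNTTTC is the same element on the other strand). A match is a description of the letters only.
Ifit3 (chr19:34583348-34583407, plus strand): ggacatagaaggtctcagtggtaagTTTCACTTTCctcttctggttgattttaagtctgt
Gbp2 (chr3:142620579-142620638, plus strand): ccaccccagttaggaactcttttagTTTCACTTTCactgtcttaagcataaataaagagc
Gbp3 (chr3:142559974-142560033, plus strand): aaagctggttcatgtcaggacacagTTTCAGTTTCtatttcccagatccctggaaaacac
Stat2 (chr10:128270251-128270310, plus strand): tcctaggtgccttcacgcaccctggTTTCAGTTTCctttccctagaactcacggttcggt
Rsad2 (chr12:26456538-26456597, minus strand): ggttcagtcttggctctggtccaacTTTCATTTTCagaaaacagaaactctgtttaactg
Ifitm2 (chr7:140955973-140956032, minus strand): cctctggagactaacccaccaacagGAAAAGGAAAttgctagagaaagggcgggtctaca

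Irf9, the DNA-binding subunit of that complex, was at 92.2, 108, 75.6 and 114 in FA and 66.0, 77.8, 57.0 and 67.6 in MA (0.53, SE 0.15, limma adjusted p = 0.678). The methods' test called it, although FA replicate 3 lay within the range of MA. Irf3, the factor that first induces interferon after viral nucleic acid is sensed, was at 435, 405, 384 and 452 in FA and 342, 369, 290 and 352 in MA (0.31, SE 0.11), without overlap, and its 2 dimmer probes stood at 0.17 and 0.31. Ifit3, an interferon-induced protein that binds foreign RNA and has the element shown above, was at 279, 350, 149 and 241 in FA and 155, 193, 172 and 191 in MA (0.46, SE 0.21). Its FA replicate 3 was the lowest of all 8 arrays. The remaining genes with the element had smaller differences relative to their error, with Gbp2, a GTPase of antiviral defence, at 0.38 (SE 0.35), Rsad2, the antiviral enzyme viperin, at 0.35 (SE 0.39), Ifitm2, which blocks viral entry, at 0.32 (SE 0.25), Gbp3 at 0.24 (SE 0.29) and Stat2 at 0.17 (SE 0.17). Usp18, which removes the interferon-induced tag ISG15, was at 48.7, 51.8, 16.5 and 48 in FA and 18, 30.1, 25.2 and 25.2 in MA (0.64, SE 0.34). FA replicate 3 was again at the low end.

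By array, the mean level of the interferon list was 0.463, 0.328, -0.349 and 0.216 in FA and -0.341, 0.046, -0.285 and -0.079 in MA. The arrays high in this list, FA replicates 1 and 2, were also high in choroid plexus genes, and the part of that in the result was not tested. Without FA replicates 1 and 2 and MA replicate 2, the 3 arrays with the most choroid plexus signal, 12 of 14 means were higher in FA with a median of 0.14. Without FA replicate 1 and MA replicate 3 together, 13 of 14 were higher with a median of 0.13. The median of the same list was 0.22 in young and 0.46 in old mice, again with a higher mean in females.

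**Figure D2:**
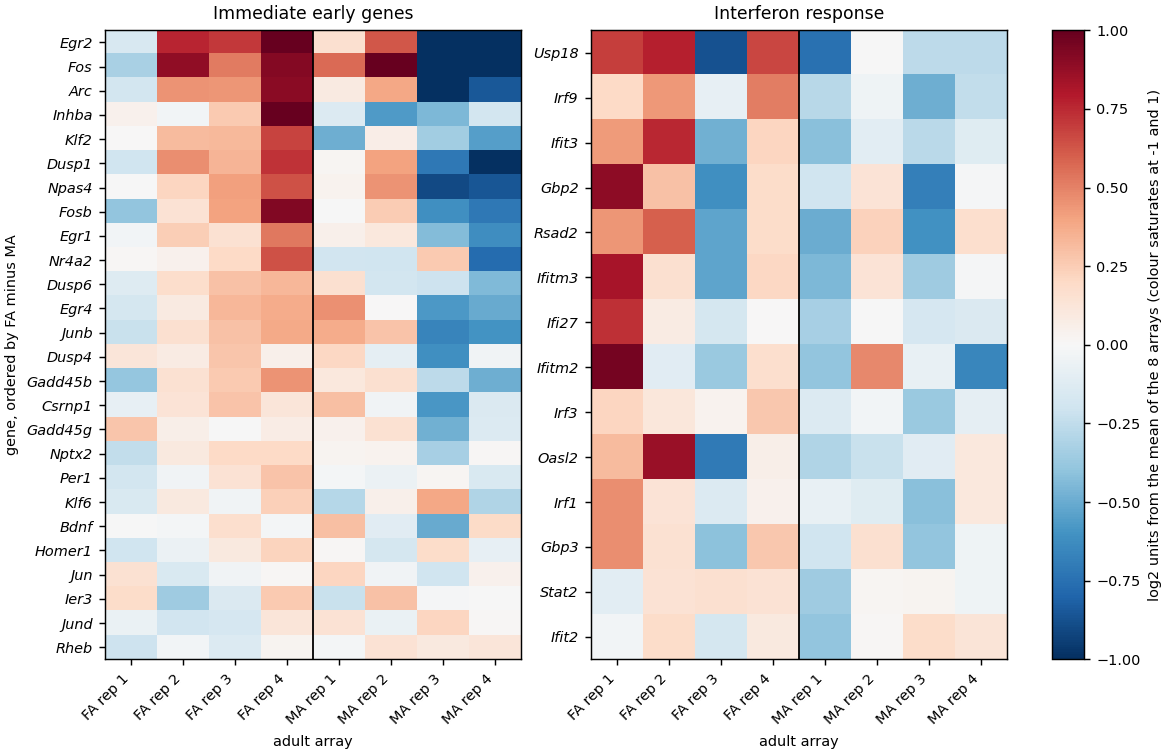
Log2 intensity of the 26 immediate early genes (left) and the 14 interferon response genes (right) in each adult array (columns), as deviation from the mean of the 8 arrays, with genes ordered by FA minus MA. Among immediate early genes the low values lie in MA replicates 3 and 4 and the high values in FA replicate 4, while among interferon genes FA replicate 3 is as low as the MA arrays.

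Steroid receptors and genes that glucocorticoids induce, such as the chaperones that hold the receptors, had higher means in FA for 19 of 21 measured genes (median 0.12). Of these, 3 had a p under 0.05 (over all genes 2.86% higher). Fkbp4, a chaperone of steroid receptors, was at 1228, 1232, 1142 and 1439 in FA and 1105, 1146, 962 and 1075 in MA (0.23, SE 0.08). Its lowest FA array lay just within the range of MA. Plin4, a lipid droplet protein, was at 48.8, 42.5, 58.0 and 61.4 in FA and 27.1, 19.9, 16 and 30.4 in MA (1.2, SE 0.55), without overlap, with MA replicate 3 at the floor. Esrra, an orphan nuclear receptor related to the oestrogen receptors, was at 315 to 347 in FA and 273 to 308 in MA (0.19, SE 0.10). Glucocorticoid targets in the list differed in size. Sgk1, a kinase, stood at 0.25 (SE 0.23), Fkbp5, a co-chaperone that dampens the receptor, at 0.11 (SE 0.09) and Klf9, a transcription factor, at 0.13 (SE 0.09). Dusp1, described above, had a larger difference, from 0.43 to 0.91 when any 1 array was left out. Dusp1 and Per1 stand both in this list and in that of the immediate early genes, so the 2 lists are not independent. The mean level of the list did not overlap between the groups, being 0.032 to 0.254 in FA and -0.255 to 0.005 in MA, and the count of higher means was 15 of 21 without MA replicate 3, while 0 had a p under 0.05 without FA replicate 4. Among 20 circadian clock genes 9 had a higher and 11 a lower mean in FA. Per2, a repressor of the clock, was at 531, 526, 523 and 550 in FA and 473, 440, 425 and 442 in MA (0.26, SE 0.08), without overlap, whereas the clock output genes Dbp and Nr1d1 stood at -0.04 (SE 0.16) and 0.04 (SE 0.14). The hours at which the mice were killed are not given in the sources used here.

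Microglial genes were described in 2 lists, of homeostatic and of phagocyte genes, and in bulk tissue fewer cells of a type cannot be told apart from less RNA per cell. Of 14 homeostatic markers, 7 had a higher and 7 a lower mean in FA, with a median of 0.00. Without FA replicate 1 and MA replicate 3 the list had 6 of 14 higher means and a median of -0.01, and the difference between the 2 lists was not tested. Cx3cr1, the fractalkine receptor, was at 318 to 355 in FA and 313 to 408 in MA (-0.05, SE 0.10). Tmem119, a marker of resident microglia, stood at -0.04 (SE 0.15). P2ry12, the receptor through which microglial processes sense nucleotides, was at 46.3, 61.1, 56.9 and 51.0 in FA and 76.7, 60.7, 88.9 and 84.3 in MA (-0.52, SE 0.24), so that only MA replicate 2 overlapped with FA. Of 18 genes of activated phagocytes, 14 had a higher mean in FA (median 0.16), and 2 of them had a p under 0.05. Cd52, a small surface glycoprotein of leukocytes, was at 111, 78.2, 44.9 and 46.7 in FA and 37.6, 57.5, 32.3 and 60.6 in MA (0.53, SE 0.25). Gpnmb, a glycoprotein of phagocytes, was at 163, 127, 109 and 111 in FA and 88.0, 81.6, 59.0 and 125 in MA (0.56, SE 0.23). Lgals3, a lectin of activated microglia, was at 198, 69.4, 40.6 and 37.4 in FA and 32.5 to 54.7 in MA (0.56, SE 0.47). FA replicate 1 held the highest value of all 3 genes, and without it the difference of Cd52 was 0.27 and that of Lgals3 0.04.

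The direction of the phagocyte list depended on which arrays were kept. Its mean level was 0.595, 0.076, -0.176 and -0.091 in FA and -0.244, 0.069, -0.298 and 0.07 in MA, and without FA replicate 1 and MA replicate 3, 6 of 18 means were higher in FA with a median of -0.03. With FA replicate 1 alone left out 12 of 18 were higher (median 0.05), and with MA replicate 3 alone left out 14 of 18 (median 0.11). The published list of microglial transcripts from purified cells had 116 of 150 means higher in FA (median 0.11), and 74 of 150 without these 2 arrays (median 0.00). Complement genes, whose proteins tag synapses and pathogens for removal, had a higher mean in FA for all 7 measured (median 0.20) and for 4 of 7 without the 2 arrays (median 0.03). C1qa, a subunit of the recognition molecule C1q, stood at 0.08 (SE 0.13), and C4b, the next component of the classical pathway, was at 335, 245, 200 and 265 in FA and 195, 199, 207 and 317 in MA (0.20, SE 0.18). The antigen presentation genes of MHC class I and II had 6 of 7 means higher, and 1 of 7 without the 2 arrays. For the lists of microglial states M0, M1 and M2, which the study had used, 12 of 23, 12 of 16 and 15 of 24 means were higher in FA, with medians of 0.00, 0.09 and 0.06. Without the 2 arrays M2 had 16 of 24 means higher and M1 had 8 of 16. FA replicates 1 and 2 and MA replicate 2, which had the most choroid plexus signal, were also left out together. The phagocyte list then had 9 of 18 means higher (median -0.01) and the published microglial list 94 of 150 (median 0.03). Complement had 5 of 7 (median 0.09) and MHC class I and II 2 of 7 (median -0.02).

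Astrocyte genes had 8 higher and 9 lower means in FA among 17 homeostatic markers. The glutamate transporters Slc1a2 and Slc1a3, the water channel Aqp4 and the gap junction gene Gja1 stood at 0.04 (SE 0.08), -0.10 (SE 0.10), 0.08 (SE 0.14) and -0.05 (SE 0.06). The 3 members with a p under 0.05 were all lower in FA (over all genes 3.45%) and did not overlap between the groups (over all genes 2.78% lower). S100b, a calcium-binding protein that astrocytes secrete, was at 30.2, 31.8, 24.2 and 23.1 in FA and 38.1, 36.5, 56.4 and 46.3 in MA (-0.69, SE 0.27). Gpc5, a proteoglycan of the astrocyte surface, was at 515 to 570 in FA and 587 to 735 in MA (-0.26, SE 0.10). Ndrg2, a stress-responsive gene of mature astrocytes, was at 392 to 480 in FA and 480 to 702 in MA (-0.34, SE 0.15). MA replicate 3 was the highest array for each of them, and without it and FA replicate 1, 0 of 17 members had a p under 0.05. Gfap, the filament protein of reactive astrocytes, was at 84.4 to 103 in FA and 91.7 to 114 in MA (-0.15, SE 0.34), and the protease inhibitor gene Serpina3n, which reactive astrocytes express, at 480 to 562 in FA and 347 to 551 in MA (0.17, SE 0.28).

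Oligodendrocyte genes had higher means in FA for 13 of 17 measured genes (median 0.17), and 0 had a p under 0.05. Mag, an adhesion protein of the inner myelin layer, was at 2301, 2674, 2255 and 1968 in FA and 2049, 1863, 1358 and 2732 in MA (0.24, SE 0.16). Mog, a surface antigen of myelin, was at 474, 514, 436 and 335 in FA and 359, 426, 206 and 530 in MA (0.27, SE 0.20). MA replicate 3 was the lowest and MA replicate 4 the highest array for both genes, so the male spread spanned the female values. Mbp, the major cytosolic protein of myelin, stood at 0.10 (SE 0.11). Without MA replicate 3 the list had 10 of 17 higher means and a median of 0.01, while without MA replicate 4 it had 15 of 17, a median of 0.29 and 7 at a p under 0.05. A published oligodendrocyte list had 152 of 248 means higher in FA (median 0.03). At a p under 0.05, 13 of its genes were higher and 1 lower (over all genes 2.86% and 3.45%). Without FA replicate 1 and MA replicate 3, 131 of 248 means were higher, and 4 genes were higher and 3 lower at that p. Among precursors, Gpr17, a receptor of cells about to differentiate, was at 129, 152, 145 and 227 in FA and 137, 126, 117 and 118 in MA (0.36, SE 0.15), and Pdgfra, the growth factor receptor that defines precursors, at -0.10 (SE 0.10). Endothelial genes had 11 of 16 means higher with a median of 0.04 and 0 at a p under 0.05. Flt1, a receptor of vascular growth factor, stood at -0.05 (SE 0.10).

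The widest spread between arrays lay in genes of tissues that border the hippocampus. Choroid plexus genes, from the epithelium that makes cerebrospinal fluid, had a higher mean in FA for all 13 measured (median 0.98) and 0 had a p under 0.05. Ttr, a carrier of thyroid hormone that this epithelium secretes, was at 13308, 12121, 2281 and 1340 in FA and 776, 11962, 1551 and 792 in MA (1.36, SE 1.02). Kl, the hormone co-receptor klotho, was at 1369, 437, 127 and 101 in FA and 119, 432, 81.9 and 120 in MA (0.98, SE 0.82). FA replicates 1 and 2 and MA replicate 2 were high and the other 5 arrays low, and this held within both sexes. The mean level of the list was 2.69, 1.096, -0.973 and -0.652 in FA and -1.288, 1.131, -0.967 and -1.037 in MA, and its median was 0.37 without FA replicate 1 and 1.52 without MA replicate 2, with 0 and 5 members at a p under 0.05. Without FA replicate 3 it was 1.46 with 3 such members, and without FA replicate 4 it was 1.47 with 1. Genes of cilia and ependyma, the lining of the ventricles, followed with 6 of 6 higher means, a median of 0.46, and a median of -0.03 without FA replicate 1 and MA replicate 3. Tekt1, a structural protein of cilia, was at 157, 63.3, 36.9 and 43.8 in FA and 26.9 to 45.3 in MA (0.82, SE 0.46, and 0.38 without FA replicate 1). In the meningeal list, which shares Igf2, Igfbp2 and Slc13a4 with the choroid plexus list and is not independent of it, 10 of 12 means were higher (median 0.35). Its median was 0.13 without FA replicate 1 and 0.18 without MA replicate 4, and 0.63 without FA replicate 3 and 0.62 without MA replicate 2, with 3 and 4 members at a p under 0.05. Ptgds, which makes prostaglandin D2 in the meninges, was at 1711, 737, 741 and 2160 in FA and 556, 1982, 1524 and 581 in MA, a pattern that differed from that of the choroid plexus. Choroid plexus marker levels thus moved with FA replicates 1 and 2 and MA replicate 2 beside every list in which those arrays were high, and their part in those lists was not tested.

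Prl, which encodes the pituitary hormone prolactin, had the largest difference of the 7980 autosomal genes. It was named after its values were seen. Its intensity was 1333, 92.8, 56.1 and 341 in FA and 31.2, 16, 98.8 and 16 in MA (2.89, SE 1.05, limma adjusted p = 0.739). FA replicates 1 and 4 were far above the rest, and FA replicates 2 and 3 lay below the highest MA array. Gh, which encodes growth hormone, the other major product of the anterior pituitary, was at 230, 16, 16 and 24.7 in FA and 91.0, 22.1, 227 and 28.4 in MA (-0.79, SE 0.93). FA replicate 1 was the highest array for both hormones, and MA replicate 3 was the highest MA array for both. FA replicate 4, the second highest for Prl, was low for Gh. The Prl difference was 2.02 without FA replicate 1.

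**Figure D3:**
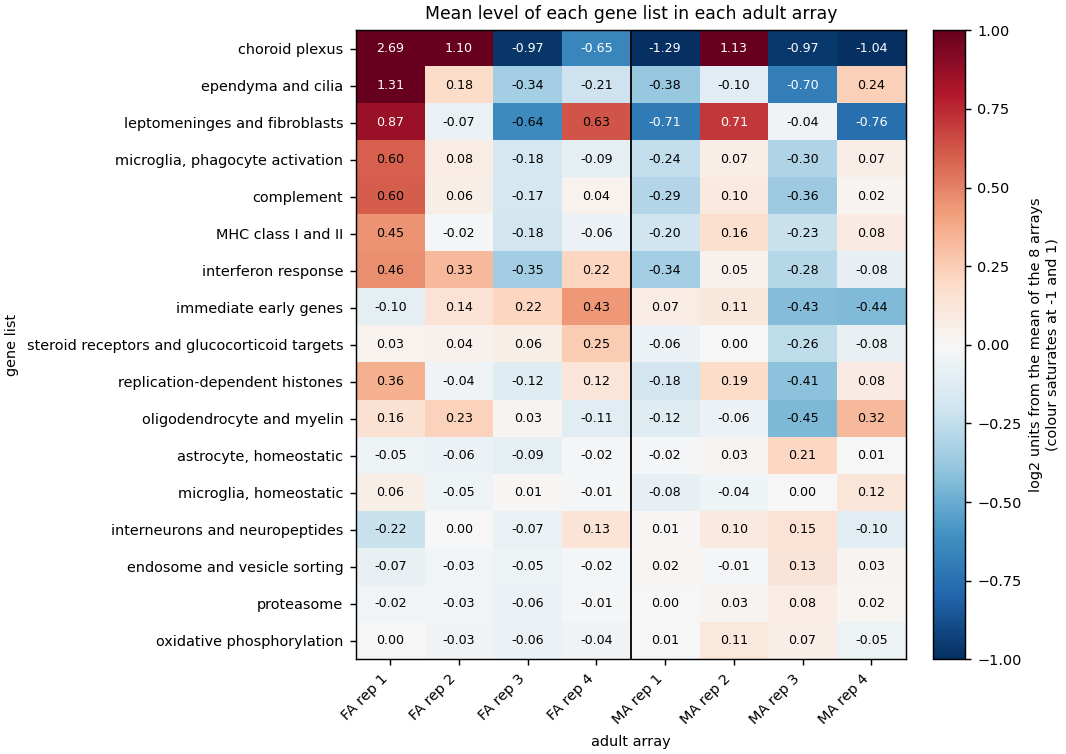
Mean level of 17 gene lists in each adult array (columns), in log2 units from the mean of the 8 arrays, with colours saturating at -1 and 1. The choroid plexus row spans -1.288 to 2.69 with both sexes mixed, FA replicate 1 is highest for the phagocyte, complement and MHC rows, and the immediate early gene row is lowest in MA replicates 3 and 4.

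The medians of the neuronal lists lay close to 0. Of 16 pyramidal cell markers 7 had a higher and 9 a lower mean in FA (median -0.05), and of 10 dentate granule cell markers 3 and 7 (median -0.05), with 0 at a p under 0.05 in either list. Camk2a, the synaptic kinase of excitatory neurons, was at 3134 to 4011 in FA and 2841 to 3979 in MA (-0.04, SE 0.12). Prox1, the transcription factor that defines granule cells, was at 159 to 241 in FA and 130 to 276 in MA (0.02, SE 0.29). Among 18 genes of glutamate receptors and their scaffolds the median difference was -0.01, with Gria1 at 0.18 (SE 0.18), Gria2 at -0.02 (SE 0.13) and Dlg4, which encodes the scaffold PSD-95, at -0.10 (SE 0.17). Grik1, a kainate receptor subunit found in interneurons, was at 122 to 163 in FA and 159 to 204 in MA (-0.26, SE 0.12). Of 27 genes of synaptic vesicle release 16 had a lower mean in FA (median -0.03). 0 of them had a p under 0.05 by the brightest probe of each gene, which stands for the gene in every list here. Syt11, a synaptotagmin, had probes that disagreed, since 1 dim probe that the methods' test called stood at -0.33 (SE 0.11) and the other 2 at -0.01 and 0.02.

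Most interneuron genes had a lower mean in FA. Of 21 interneuron and neuropeptide genes 13 had a lower mean (median -0.05), and of the 170 measured genes of a published interneuron list 115 had a lower and 55 a higher mean (median -0.06), with 12 lower and 1 higher at a p under 0.05. Gad1, the enzyme that makes GABA, was at 1736, 2321, 2081 and 2484 in FA and 2301, 2591, 3468 and 2541 in MA (-0.33, SE 0.15), and its second probe stood at -0.32. Sst, the neuropeptide somatostatin, was at 2420, 2723, 2885 and 3208 in FA and 2930, 3051, 4204 and 2989 in MA (-0.22, SE 0.11). FA replicate 1 was lowest and MA replicate 3 highest for both genes. Without these 2 arrays 91 of the 170 genes had a higher mean in FA and 4 had a p under 0.05 in each direction (median 0.01). Pvalb and Npy, markers of other interneuron classes, stood at 0.12 (SE 0.16) and 0.07 (SE 0.11).

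Replication-dependent histone genes had higher means in FA for 19 of 22 measured genes (median 0.19). At a p under 0.05, 4 were higher (over all genes 2.86%) and 2 lower (3.45%). The higher count was 9 without MA replicate 2, and 2 without FA replicate 1, FA replicate 4 or MA replicate 3. These genes make the histones that package new DNA. H2ac15 was at 128, 96.0, 104 and 141 in FA and 88.8, 93.8, 73.6 and 83.7 in MA (0.45, SE 0.13, limma adjusted p = 0.739), without overlap, and the methods' test called it. H2ac7 was at 106 to 139 in FA and 76.6 to 97.5 in MA (0.46, SE 0.18), and H2bc6 at 81.3 to 111 in FA and 46.3 to 77.5 in MA (0.59, SE 0.25). H3c13 stood the other way, at 441, 435, 430 and 416 in FA and 521, 562, 659 and 502 in MA (-0.37, SE 0.12). Near-identical histone copies may share probes, so single members are uncertain. Without FA replicate 1 and MA replicate 3, 7 of 22 means were higher in FA and the median was -0.10, which turned the direction of the list.

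Genes of protein turnover and energy supply stayed close to 0 as lists. Of 33 proteasome subunits 18 had a lower and 15 a higher mean in FA (median -0.02). At a p under 0.05, 4 were lower (over all genes 3.45%). That count was 2 without FA replicate 1, FA replicate 3 or any of MA replicates 2, 3 and 4. Psma5, a subunit of the core particle, was at 2182, 2153, 2059 and 2152 in FA and 2238, 2626, 2205 and 2509 in MA (-0.16, SE 0.06), without overlap. Psmd14, which removes ubiquitin at the lid, was at 370 to 388 in FA and 416 to 587 in MA (-0.32, SE 0.15). The female values of Psmd14 lay within a narrow band and the males were more spread. In the endosome and vesicle sorting list 28 of 42 means were lower in FA (median -0.04). Snx7, a sorting nexin, was at 45.9, 42.1, 40.8 and 40.0 in FA and 59.2, 45.5, 72.1 and 70.5 in MA (-0.53, SE 0.17), and Rab5a, the GTPase of early endosomes, at 412 to 501 in FA and 492 to 538 in MA (-0.18, SE 0.07). Chmp1b and Chmp4b, subunits of the ESCRT-III complex that cuts membranes, stood the other way at 0.23 (SE 0.08) and 0.19 (SE 0.08), with groups that did not overlap, and a second, dimmer probe of Chmp4b stood at -0.14. The mean levels of the proteasome list (-0.061 to -0.012 in FA and 0.003 to 0.078 in MA) and the endosome list (-0.072 to -0.016 and -0.013 to 0.129) did not overlap either, although the gaps between the groups were small. The same held for the homeostatic astrocyte list (-0.094 to -0.022 in FA and -0.018 to 0.207 in MA). Levels were computed for every list, and whether more lists separated than by chance was not tested.

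Of 71 genes of oxidative phosphorylation 33 had a higher and 38 a lower mean in FA (median 0.00), with 1 and 3 at a p under 0.05. Atp5a1, the alpha subunit of ATP synthase, was at 390 to 489 in FA and 574 to 937 in MA (-0.59, SE 0.21). Ndufs6, a subunit of complex I, stood the other way at 0.19 (SE 0.08). Among 35 lysosomal genes 22 had a higher mean (median 0.04), and 4 had a p under 0.05, all higher in FA (over all genes 2.86%). That count fell to 1 higher and 1 lower without FA replicate 1 and without MA replicate 1, to 1 higher without MA replicate 3 and to 2 higher without MA replicate 4. Glb1, the lysosomal beta-galactosidase, was at 266, 190, 171 and 193 in FA and 177, 156, 174 and 148 in MA (0.31, SE 0.13), and Psap, the precursor of the saposins that help degrade sphingolipids, at 6958 to 8101 in FA and 6171 to 7316 in MA (0.17, SE 0.08). Of 45 splicing genes 25 had a lower mean, and 3 had a p under 0.05, all lower in FA (over all genes 3.45%). Among the 24 genes described above, Srsf5, a splicing factor, was at 712, 721, 707 and 467 in FA and 842, 902, 811 and 906 in MA (-0.43, SE 0.12), without overlap, by the dimmer of its 2 probes. Cirbp, an RNA-binding protein induced by cold and the list member with the largest difference, was at 184 to 268 in FA and 286 to 327 in MA (-0.45, SE 0.20). Of 25 genes linked to neurodegeneration 21 had a higher mean in FA (median 0.05), with 1 at a p under 0.05, Bin1, which bends membranes in endocytosis. Bin1 was at 1726 to 1921 in FA and 1517 to 1722 in MA (0.17, SE 0.08), and its 2 dimmer probes stood at -0.01 and -0.18. App and Mapt, the genes of the amyloid precursor and tau, stood at -0.07 (SE 0.06) and 0.08 (SE 0.07).

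**Figure D4:**
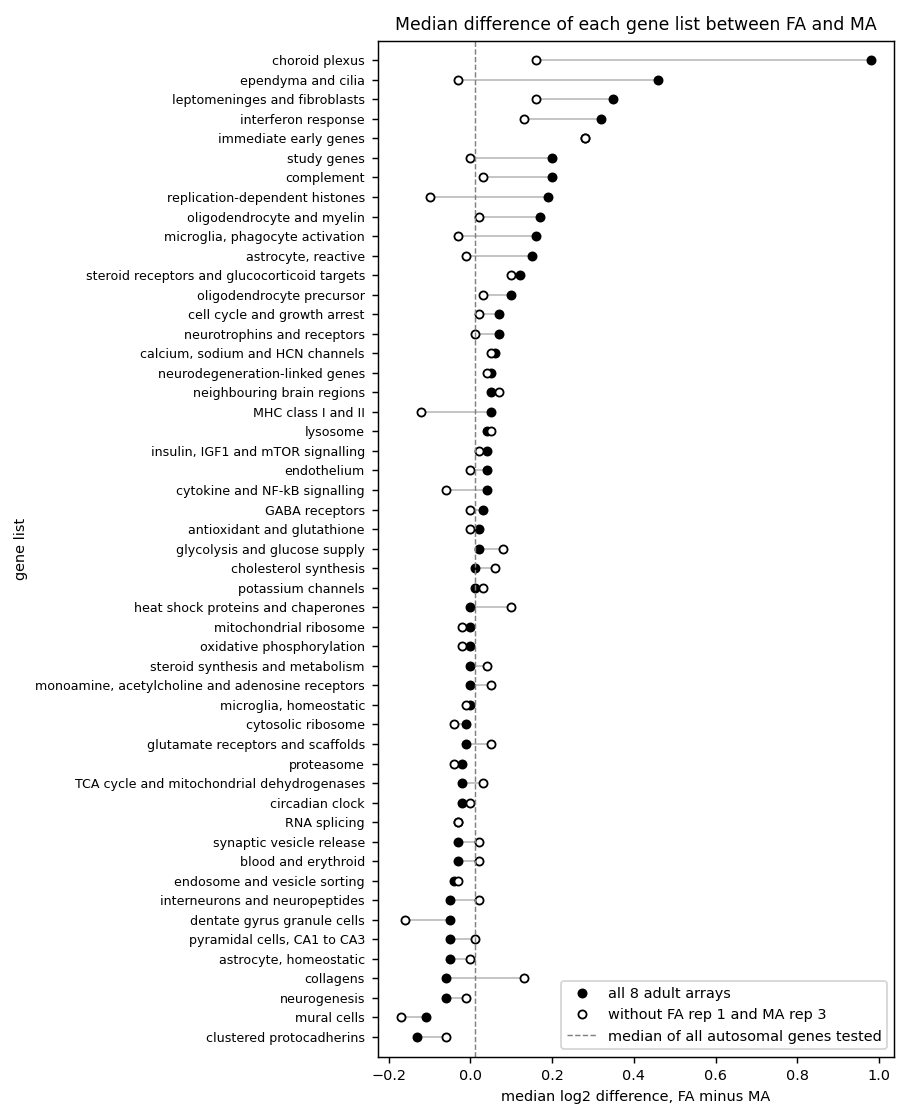
Median log2 difference (FA minus MA, x axis) of each hand-written gene list over all 8 adult arrays (filled circles) and without FA replicate 1 and MA replicate 3 (open circles), with a dashed line for the median of all autosomal genes tested. Immediate early genes lie at 0.28 in both, the interferon list moves from 0.32 to 0.13, and the choroid plexus, ependyma and histone lists move most toward or past 0.

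The adult differences were set beside those of the other ages, which use other mice. Limma called 0 of 11523 probes for a difference between the adult and the young sex effect (0%, lowest adjusted p = 0.363, with 1076 or 9.34% at an unadjusted p under 0.05), and 0 for adult against old (0%, lowest adjusted p = 0.979, with 439 or 3.81%). Across autosomal probes, Pearson's r of the adult sex difference was -0.17 with the young one and 0.256 with the old one, a description over probes that share arrays and are not independent. Some genes kept their sign at all 3 ages. Srsf5 stood at -0.34 in young, -0.43 in adult and -0.42 in old mice, and Rab6a at -0.15, -0.28 and -0.29. Irf9 stood at 0.23, 0.53 and 0.48, and Lnx2, a ubiquitin ligase, at 0.26, 0.49 and 0.17. When the sex differences of the 3 ages were averaged, a contrast chosen after the data were seen, limma called 7 autosomal probes higher and 14 lower in females, with Srsf5 and Rab6a (adjusted p = 0.01 for both) and Irf9 (adjusted p = 0.0408) among them, beside Syt11, Ago3, Rab5a and Dctn1 of the genes named above. Each of these values is of 1 probe. Other probes had adult differences of -0.10 for Srsf5, 0.11 and 0.07 for Rab6a, and 0.03 for Lnx2. For Syt11 they stood at -0.01 and 0.02, for Ago3 at 0.11 and 0.27, and for Rab5a at -0.27.

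Other genes that were lower in FA were higher in young females than in young males. Saraf, which limits calcium entry after stores have emptied, was at 747, 794, 677 and 780 in FA and 1058, 937, 1242 and 971 in MA (-0.48, SE 0.14), against 0.43 in young and 0.06 in old mice. Tmed2 stood at 0.52 in young, -0.92 in adult and 0.00 in old mice, Atp5a1 at 0.62, -0.59 and 0.03, and S100b at 0.62, -0.69 and 0.08. P2ry12 stood at 0.65, -0.52 and 0.15, and Snx3, a sorting nexin of endosomes, at 0.53, -0.56 and 0.07. Their choice followed their values, MA replicate 3 was the highest adult array for each of them, and no probe passed the test of the difference between ages. The list of replication-dependent histones had medians of 0.00, 0.19 and 0.43 at the 3 ages, the phagocyte list 0.09, 0.16 and 0.52, and the immediate early genes 0.00, 0.28 and 0.10.

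**Figure D5:**
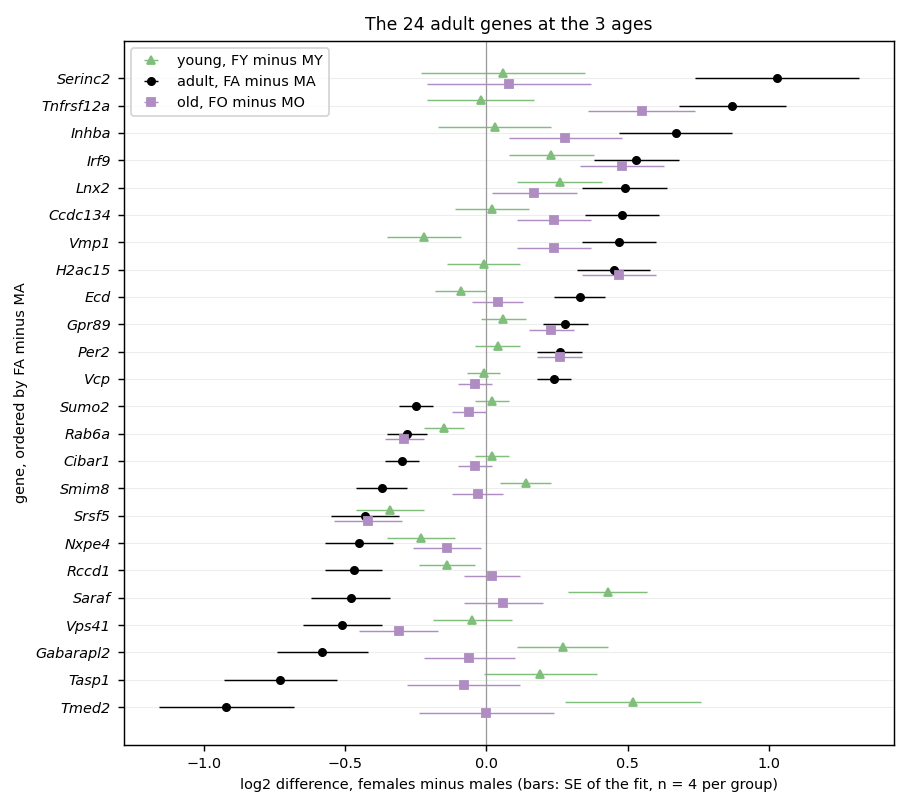
Log2 difference of females minus males (x axis, bars are the SE of the fit, n = 4 per group) for the 24 adult genes at 3 months (triangles), 12 months (circles) and 24 months (squares). The genes were chosen at 12 months, so that the black points lie farthest from 0 for most of them, Srsf5 and Rab6a lie below 0 at all 3 ages, and Saraf, Tmed2 and Gabarapl2 lie above 0 in young mice.

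Inter-animal variance was compared because the study asked whether mice of a group became less alike with age and sex. Between the mice of a group, the median SD over probes was 0.133 in FA and 0.166 in MA on the log2 scale, and for 62.8% of probes the variance was larger in MA. The median log2 ratio of the variances, FA over MA, was -0.645 (a ratio of 1.56 for MA over FA), which did not pass an exact permutation test over the 70 divisions of 8 mice (two-sided p = 0.143, the smallest possible being 0.0286). It was -0.021 without MA replicate 3 and -1.066 without FA replicate 1. Saraf, Gad1 and Mag are examples of genes with a wider range in MA, whereas Kl and Lgals3 had a wider range in FA through FA replicate 1.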

How the data were processed

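Hippocampal RNA of single mice was hybridised to Illumina Mouse Ref8 arrays, with 24 arrays in 6 groups of 4, taken from the labels. The authors deposited linear intensity values that GenomeStudio 2011.1 had background-subtracted and average-normalized, so that each array had a mean of 206.642. In the 8 adult arrays 22.7% of values lay below 0. The table used here was this one. A second table of values that were not normalized was not used, since its 48 columns match no sample label. Values were floored at 16 and log2-transformed, because negative intensities have no logarithm, which understates the change of dim genes. Average normalization forces equal array means, so that a global shift cannot be seen.

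Probes took their genes from the platform annotation, with symbols updated through Entrez identifiers for 23962 of 25697 probes, while 1719 had no symbol and were not named. Probes above 16 in all 4 arrays of FA or of MA were tested. Differences came from limma 3.58.1 in R 4.3.3 (6 group means over 24 arrays, eBayes with trend), with Benjamini-Hochberg adjustment over all 11523 tested probes at 0.05, and the code was tested on simulated data. The methods' analysis of variance over age and sex, with Newman-Keuls comparisons and a fold limit of 1.2, was run on the same values. Lists were described by counts and medians, each gene by its brightest probe. Open to naming were the 12 genes with the smallest p in each direction and the members of each list that a test called or that had the 3 smallest p-values. Genes of the label check and the study's own genes were added. The text describes only a part of these genes and of the lists. Other genes were named for their known role or, where the text says so, after their values were seen. The members and the lists were chosen with earlier results of these data known, and the lists give no independent support. Cell type lists of published cell data came from the study's supplements by mouse Entrez identifier. Replicate numbers did not pair the samples, since deviations of same-numbered arrays correlated at -0.172 to 0.042. The number of arrays limits the precision. The alternatives were other floors, filters, normalization, variance models, array weights, a replicate block, the 8 adult arrays alone, each array left out in turn and, chosen after the data were seen, the mean of the 3 ages and 2 sets of arrays left out together.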

Additional observations from a re-analysis of the deposited data

Results flagged for a closer look

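In 268 groups of 4 arrays (110 genes and 24 lists of the text, in FA and in MA), 18 had 1 array farther from the others than Dixon's ratio allows, where chance flags about 1 in 20 groups. Among genes of the report's first comparisons, Srsf5 was lowest in FA replicate 4 at 467, Kif2a lowest in FA replicate 3 at 141, Dctn1 highest in MA replicate 2 at 179, Tnfrsf12a highest in MA replicate 2 at 20.1 with the other MA arrays at the floor, and Syt11 highest in MA replicate 2 at 244. Usp18 was lowest in FA replicate 3 at 16.5, and Stat2 lowest in FA replicate 1 at 41.8. C4b was highest in MA replicate 4 at 317, Sgk1 lowest in MA replicate 3 at 1000 and Sst highest in MA replicate 3 at 4204. Aqp4 was lowest in FA replicate 3 at 684, Atp5a1 lowest in FA replicate 3 at 390, Ndufs6 lowest in FA replicate 4 at 2710 and Mapt lowest in FA replicate 1 at 2164. Gh was highest in FA replicate 1 at 230. Of the list levels, the steroid receptor and glucocorticoid list was highest in FA replicate 4 at 0.254, the choroid plexus list highest in MA replicate 2 at 1.131, and the neurodegeneration list lowest in FA replicate 2 at -0.021.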

How the results depend on the processing

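Limma called 0 autosomal probes in either direction under the settings tried, except that the count lower in FA was 2 with a floor of 32 (Cibar1 and Rccd1), 1 without the filter on low probes (Cibar1), 1 without a variance trend (Rccd1) and 3 with array weights (Cibar1, Smim8 and Sumo2). The mean of the 3 ages, chosen after the data were seen, gave 7 higher and 14 lower, and the methods' test gave 24 and 36. The methods' count of 60 was 306 with the post hoc test between the sexes within the age, and 61 to 123 when 1 array was left out. The cause of these shifts was not tested. With the replicate number as a block, limma called 0 autosomal probes, with 289 higher and 469 lower at an unadjusted p under 0.05. The Kdm6a probe was no longer called in the 8 adult arrays alone (limma adjusted p = 0.195). The same held without FA replicate 1 (limma adjusted p = 0.0769), MA replicate 2 (0.0561) or MA replicate 3 (0.0716). With the 2 sets of arrays left out together, its limma adjusted p was 0.38 and 0.913. Of 2431 values of named genes (116 probes) under other settings, 55 turned their sign, in 28 probes, and 8 of 1380 list medians moved by more than 1 SD.

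With array weights the turned differences were 0.02 for Gria2 and -0.14 for Prox1. With the mean of the 3 ages they were 0.02 for Atp5a1, 0.14 for C1ql2, 0.05 for Camk2a, 0.08 for Cx3cr1, 0.04 for Flt1, 0.15 for Gfap, 0.04 for Gria2, 0.03 for Ndrg2, -0.07 for Npy, 0.09 for P2ry12, 0.05 for Pdgfra, 0.02 for Psmd14, 0.01 for Snx3 and 0.07 for Tmem119. Without FA replicate 1 and MA replicate 3 they were -0.02 for Gbp2, 0.02 for Gja1, 0.09 for Gria2, -0.05 for Kl, -0.12 for Lgals3, -0.04 for Mog, -0.03 for Npy, -0.27 for Prox1 and 0.09 for Tmem119. Without FA replicates 1 and 2 and MA replicate 2 they were -0.01 for C1qa, -0.02 for C4b, 0.03 for Camk2a, 0.07 for Dlg4, -0.20 for Lgals3, -0.24 for Prox1 and 0.01 for Tmem119. When 1 array was left out, the differences that turned their sign ranged from -0.18 to 0.07 for C1ql2, -0.13 to 0.03 for Camk2a, -0.09 to 0.04 for Cx3cr1, -0.13 to 0.06 for Dbp, -0.08 to 0.07 for Gria2, -0.04 to 0.10 for Homer1, -0.06 to 0.14 for Npy, -0.02 to 0.08 for Nr1d1, -0.15 to 0.21 for Prox1, -0.02 to 0.59 for Ptgds, -0.02 to 0.11 for Slc1a2 and -0.14 to 0.08 for Tmem119.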
